A study of Mus musculus with 6 samples.

Results

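The Wnt signalling genes of the newborn mouse spinal cord were examined: the Wnt ligands, their Frizzled and Lrp receptors, the secreted inhibitors, the R-spondins with their Lgr receptors and ubiquitin ligases, and a set of nuclear factors and target genes. They were chosen by gene symbol, as every Wnt, Fzd, Sfrp, Rspo, Dkk, Lgr4 to Lgr6 symbol of the table together with Lrp5, Lrp6, Axin2, Lef1, Tcf7, Nkd1, Sp5, Notum, Apcdd1, Rnf43, Znrf3 and Wif1, which gave 56 of the 55487 genes. The samples were thoracic spinal cord of mice at postnatal day 0, with 3 wild-type samples (WT) and 3 samples of genotype Myt1-/-, and total RNA was sequenced in each. The study asked which genes depend on Myt1, a zinc finger factor made in neural cells, while oligodendrocytes form. The labels give neither the construction of the Myt1 allele nor strain or sex. They also leave out whether each sample is its own animal, and the p-values reflect the spread among these 6 samples alone, which may be technical.

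Wnt proteins are lipid-modified secreted signals that bind Frizzled receptors. In the canonical branch, Frizzled and the coreceptors Lrp5 and Lrp6 stop the destruction complex from degrading beta-catenin, which then joins TCF/LEF factors on target genes, and several of these targets feed back to dampen the signal. Other Wnt proteins act through planar polarity and calcium branches. In the spinal cord the pathway patterns the dorsal progenitors of the embryo, guides axons and shapes the blood-barrier of the vessels, and in the oligodendrocyte lineage high beta-catenin activity is known to hold back differentiation.

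The values were TPM (a length-corrected share of all transcripts in the sample), so levels can be compared between genes, while the number of reads behind a value is unknown. Myt1 itself lay between 11.5 and 13.6 TPM in WT and between 5.28 and 6.14 TPM in Myt1-/-, a mean of 12.2 ± 1.2 against 5.59 ± 0.475 TPM (SD, n = 3 each). Its transcript was thus lower but still present, and the values do not show whether a Myt1 product is absent, so the groups are called by their labels. The libraries differed in markers of tissue around the cord. The mean log2 level of 8 meningeal fibroblast markers lay -0.48, 0.05 and 0.42 from the WT mean in WT replicates 1, 2 and 3 and between -0.09 and -0.03 in Myt1-/-. All 8 were detected in every library. Of them 5 were lowest in WT replicate 1 and highest in WT replicate 3, among them Col1a1 at 163, 430 and 579 TPM in the WT libraries and at 326 to 359 TPM in Myt1-/-. The other 3 did not follow that order, with Pdgfrb at 15.3 to 15.4 TPM and Foxc1 at 4.9 to 5.2 TPM over the WT libraries and Aldh1a2 at 41.5, 28.1 and 43.5 TPM. The summed level of the 8 spanned 760 to 2025 TPM in WT and 1323 to 1370 TPM in Myt1-/-. The mean of 8 sensory ganglion markers lay between -0.62 and 0.56 in WT and at -0.32, -0.34 and -1.88 in Myt1-/-. Of these 8, 7 were lowest in Myt1-/- replicate 3, where Avil was at 0.14 TPM and Scn10a at 0.04 TPM, while Tac1 was at 133 TPM there (WT mean 147 TPM) and Pou4f1 at 24.3 TPM (WT mean 24.8 TPM). The mean of 8 skeletal muscle markers lay 1.64 above the WT mean in Myt1-/- replicate 3 and between -0.50 and 0.67 from it in the others. The mean of 6 spinal neuron markers stayed within 0.02 of the WT mean in every library, while single ones moved more, such as Snap25 between 404 and 494 TPM. In bulk tissue, fewer cells of a type and less RNA per cell cannot be told apart.

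No Wnt pathway member passed an adjusted p of 0.05 between the genotypes. The summed level of the 56 members was 519 ± 35.9 TPM in the WT libraries and 528 ± 11.1 TPM in those of Myt1-/- (SD, n = 3 each). Of the 56 members, 44 had a mean of at least 1 TPM over the 6 samples and were tested, 11 lay under that level and Dkk4 was listed at 0 TPM in every sample. By limma over all 15962 genes tested, 0 members passed the adjusted p, where the share over all genes was 0.0%, and the smallest adjusted p of a member was 0.669. Myt1 itself did not pass in this fit either, with an adjusted p of 0.140 by limma, so failing it does not show a gene to be unchanged. At an unadjusted p under 0.05, called in what follows, there were 4 members higher in Myt1-/- (Rnf43, Rspo1, Axin2 and Sfrp2), where the share over all genes was 4.32%, and 1 lower (Dkk3), where it was 3.13%. In either direction this makes 5 of 44, or 11.4%, beside 7.45% of all genes. After median-ratio scaling of the libraries the split was 3 higher and 2 lower, and over all genes it went from 4.32% and 3.13% to 3.45% and 4.11%.

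In the deposited TPM the groups did not overlap for 5 of the 44 tested members (11.4%), a share below the 14.3% of all genes. Rnf43, Rspo1 and Fzd3 lay above every WT sample (8.91% of all genes did). Wnt7a and Dkk3 lay below every WT sample (5.38% of all genes did). The median log2 difference of the tested members, Myt1-/- minus WT, was 0.073, beside 0.025 over all genes tested. Without WT replicate 1 the 2 medians were -0.019 and -0.004. The members at an unadjusted p under 0.05 became Rnf43, higher, and Fzd1, Tcf7 and Wnt16, lower. In that fit 3.13% of all genes were higher at that p and 4.7% lower.

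**Figure D1:**
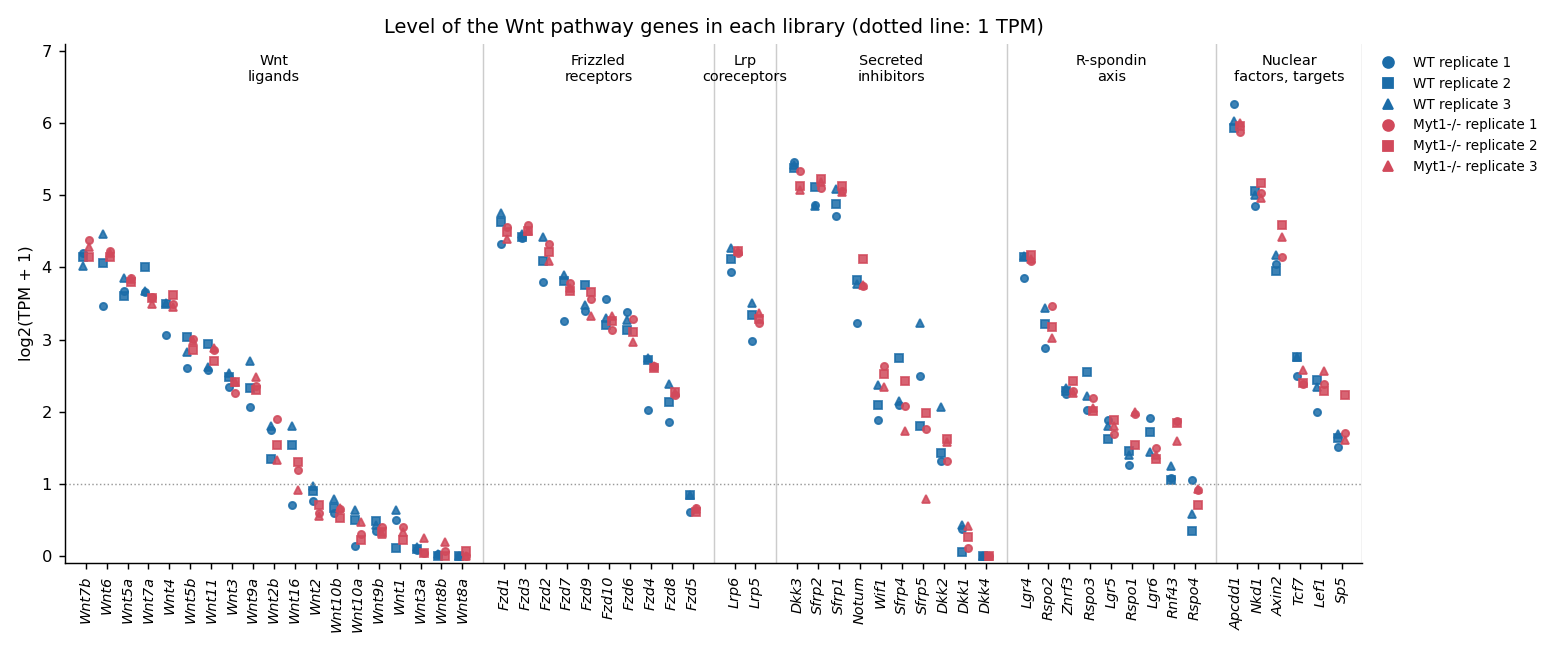
Level of each of the 56 members in each library, as log2(TPM + 1), grouped by role and ordered by mean level; blue symbols are the 3 WT libraries and red symbols the 3 Myt1-/- libraries. Levels span from Apcdd1, between 58.05 and 76.10 TPM, to Dkk4 at 0, and for most members the symbols of the genotypes lie over each other.

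**Figure D2:**
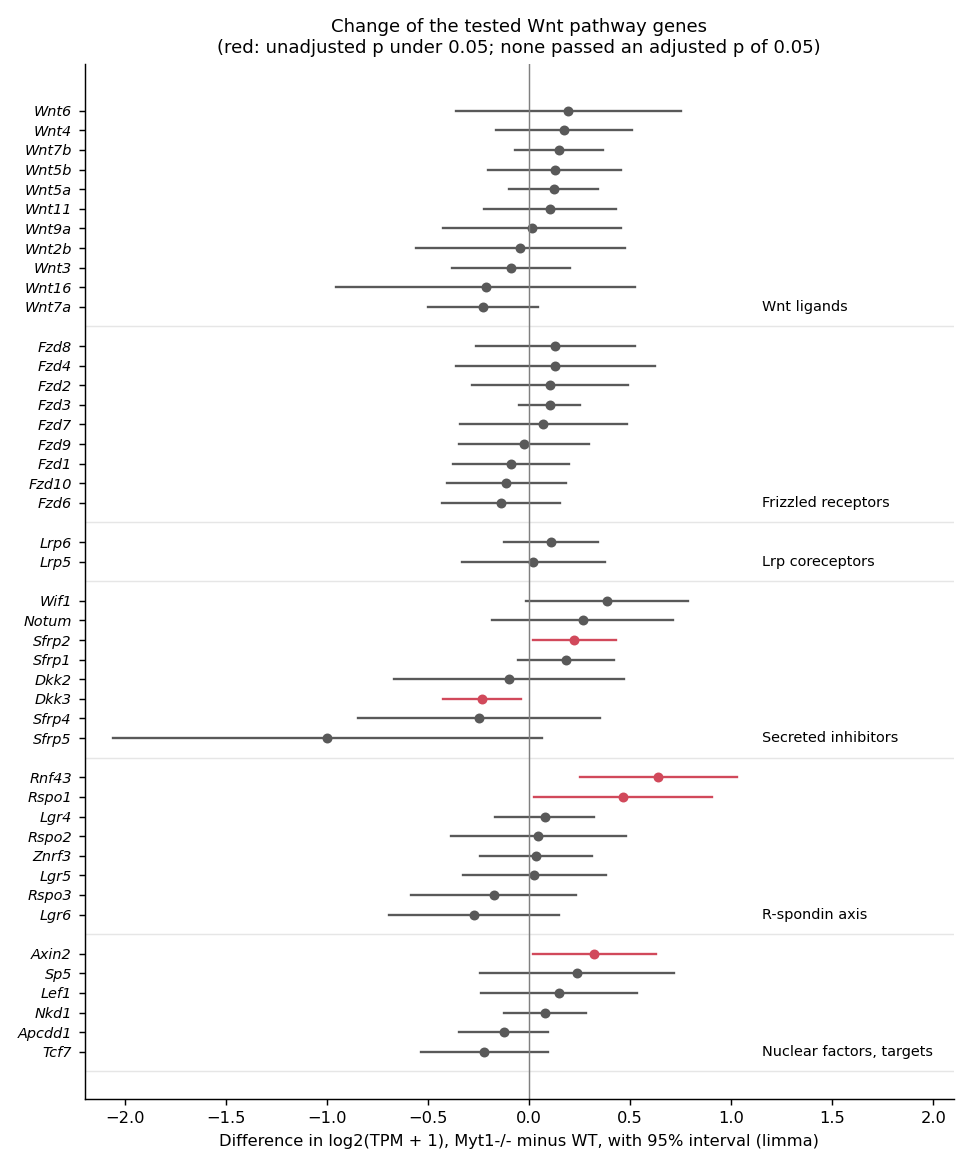
Difference in log2(TPM + 1), Myt1-/- minus WT, of the 44 tested members with its 95% interval from limma; red marks an unadjusted p under 0.05. The 5 red intervals are those of Rnf43, Rspo1, Axin2, Sfrp2 and Dkk3, and the widest interval is that of Sfrp5, from -2.06 to 0.06.

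All 19 mouse Wnt ligand genes were in the table and 11 were tested. The most abundant were Wnt7b, Wnt6, Wnt7a and Wnt5a. Wnt7b, which like Wnt7a is made by neural cells and acts on the vessels that enter the cord, was at 17.42, 16.65 and 15.16 TPM in WT and at 19.79, 16.70 and 18.41 TPM in Myt1-/-. These ranges overlapped. Wnt7a was at 11.66, 15 and 11.82 TPM in WT and at 11, 10.97 and 10.27 TPM in Myt1-/-. Every Myt1-/- sample thus lay below every WT sample, and the means were 12.8 ± 1.88 and 10.7 ± 0.413 TPM (SD, n = 3 each), 1.19-fold lower. The log2 difference of Wnt7a was -0.23 (SE 0.11), with a limma p of 0.0883 and an adjusted p of 0.690. After median-ratio scaling its limma p was 0.0473.

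Wnt5a, a ligand of the planar polarity branch, was at 12.1 ± 1.18 TPM (WT) and 13.2 ± 0.301 TPM for Myt1-/- (n = 3 each, SD), with overlapping samples. Wnt6 was the most variable of the abundant ligands, at 10.04, 15.66 and 21.04 TPM across WT and at 17.69, 16.68 and 17.33 TPM across Myt1-/-. The WT samples held both the lowest and the highest value, and the Myt1-/- samples lay between them. Its log2 difference was 0.19 (95% interval -0.36 to 0.75), and -0.072 without WT replicate 1.

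In the WT order of levels, Wnt7b, Wnt6, Wnt7a and Wnt5a followed each other with overlapping samples. Wnt4, at 9.33 TPM, lay below Wnt5a without overlap, and Wnt5b, at 6.12 TPM, below Wnt4 without overlap. Wnt11, Wnt3, Wnt9a, Wnt2b and Wnt16 followed between 5.60 and 1.68 TPM. The other 8 ligands were under the filter, with means in WT from 0.84 TPM for Wnt2 down to 0 for Wnt8a. Wnt1 and Wnt3a, the roof plate ligands of the embryonic cord, were among them, at 0.347 and 0.0733 TPM in WT. Wnt2 was at 0.69, 0.87 and 0.96 TPM in WT and at 0.51, 0.63 and 0.47 TPM in Myt1-/-. These groups did not overlap, at levels under the filter, and a fit with no filter put the unadjusted limma p of Wnt2 under 0.05. No tested ligand reached an unadjusted p under 0.05, and the 11 log2 differences lay between -0.23 and 0.19.

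Of the 10 Frizzled receptor genes 9 were tested, and none reached an unadjusted p under 0.05. Fzd1 led in WT, at 19.05, 23.79 and 26.04 TPM, and was at 22.55, 21.56 and 20.02 TPM in Myt1-/-. Its samples overlapped, with a log2 difference of -0.09 over all samples and -0.21 without WT replicate 1, where its limma p was 0.0415. Fzd3, which takes part in axon guidance and planar polarity, was at 20.34, 20.46 and 21 TPM in WT and at 23.16, 21.69 and 21.72 TPM in Myt1-/-. All 3 Myt1-/- samples lay above WT, by a small margin: the means were 20.6 ± 0.352 and 22.2 ± 0.840 TPM (SD, n = 3 each), 1.08-fold higher, and the log2 difference was 0.10 (95% interval -0.05 to 0.25). Its limma p was 0.152, and 0.264 after median-ratio scaling. After that scaling WT replicate 1 reached above Myt1-/- replicate 2, so the groups overlapped.

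Fzd2 was at 12.94, 16.04 and 20.54 TPM in WT and at 18.99, 17.58 and 16.07 TPM in Myt1-/-, again with the Myt1-/- samples inside the WT range. In WT the neighbours in level from Fzd1 down to Fzd6 (8.61 TPM) all overlapped. Fzd4, the receptor shared with the ligand Norrin, lay below Fzd6 without overlap, at 4.78 TPM. Fzd5, at 0.703 TPM, was under the filter. The coreceptor Lrp6 was at 16.3 ± 1.97 TPM (WT) and 17.6 ± 0.228 TPM (Myt1-/-), and Lrp5 at 8.80 ± 1.76 and 8.83 ± 0.477 TPM (SD, n = 3 each). The WT samples of Lrp6 lay above those of Lrp5 without overlap. The difference between genotypes was 0.11 (95% interval -0.13 to 0.34) for Lrp6 and 0.02 (95% interval -0.33 to 0.37) for Lrp5 on the log2 scale.

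Several receptor genes followed the order of the WT libraries. Of the 44 tested members, 11 (25%) were lowest in WT replicate 1 and highest in WT replicate 3, beside 10.1% of all genes tested. They were Fzd1, Fzd2, Fzd4, Fzd7, Fzd8, Lrp5, Lrp6, Wnt6, Wnt9a, Wnt16 and Dkk2. After median-ratio scaling there were 9 (20.5%), without Fzd1 and Dkk2, beside 7.19% of all genes. Before that scaling, WT replicate 1 held the lowest value for 56.8% of the tested members and for 39.8% of all genes tested. The mean of the meningeal fibroblast markers was also lowest in WT replicate 1 and highest in WT replicate 3, as were 5 of its 8 genes. Wnt6 lay -0.53, 0.06 and 0.47 from its WT mean in the WT libraries, on the log2 scale, where the marker mean lay -0.48, 0.05 and 0.42. In Myt1-/- Wnt6 lay at 0.23, 0.15 and 0.2, and the marker mean at -0.09, -0.03 and -0.05. The mean of 8 oligodendrocyte markers ran the other way over the WT libraries, at 0.54, 0.02 and -0.56. Other marker means rose over the WT libraries as the meningeal one did. They were those of skeletal muscle (-0.41, -0.26 and 0.67), endothelium (-0.08, 0.02 and 0.06) and roof and floor plate (-0.09, 0.0 and 0.09). The part of any of these tissues or cells in the levels of the 11 members was not tested.

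**Figure D3:**
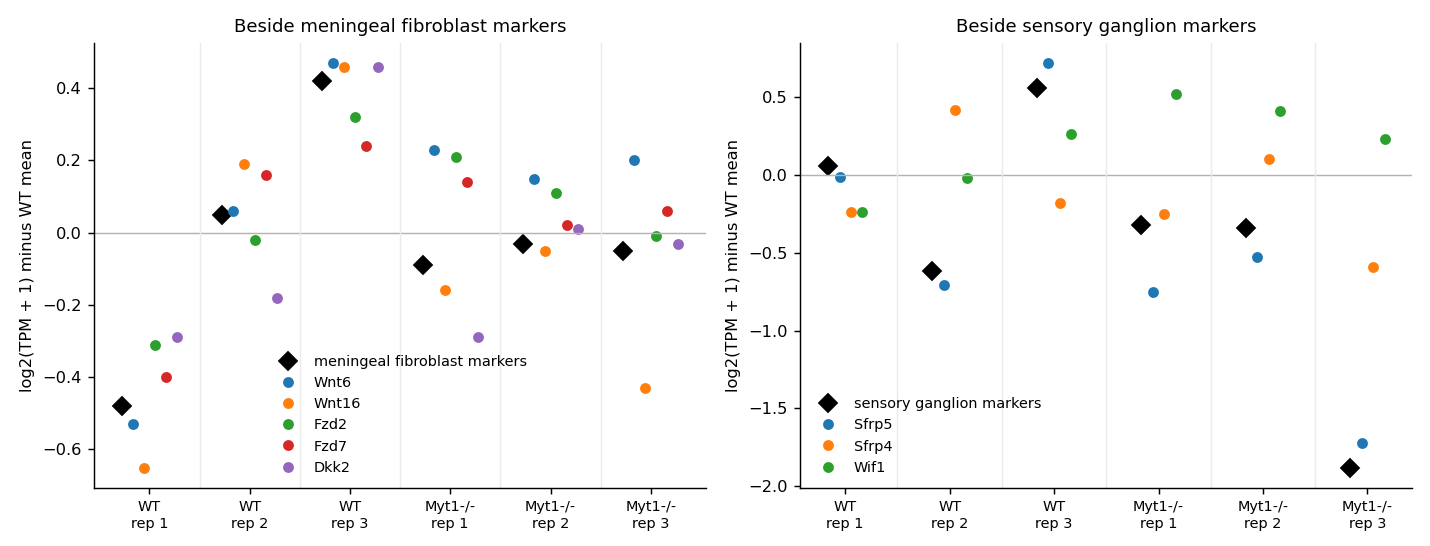
Deviation from the WT mean, on the log2(TPM + 1) scale, in each of the 6 libraries; black diamonds are the mean of a marker list and coloured points are members. On the left, Wnt6 lies at -0.53 in WT replicate 1 and 0.47 in WT replicate 3, near the meningeal mean of -0.48 and 0.42. In Myt1-/- Wnt6 lies at 0.23, 0.15 and 0.2, above the meningeal mean of -0.09, -0.03 and -0.05. On the right, Sfrp5 lies at -1.72 in Myt1-/- replicate 3, near the sensory ganglion mean of -1.88, while Wif1 lies at 0.23.

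Of the 10 secreted inhibitors 8 were tested. Dkk3, a divergent member of the Dickkopf family, was the most abundant and the only tested inhibitor with all Myt1-/- samples below WT. It was at 42.96, 40.49 and 41.71 TPM in WT and at 39.53, 33.92 and 32.83 TPM in Myt1-/-. Myt1-/- replicate 1 lay close under the lowest WT sample. The means were 41.7 ± 1.24 and 35.4 ± 3.60 TPM (SD, n = 3 each), a 1.18-fold lower level, with a log2 difference of -0.23 (SE 0.08), a limma p of 0.0237 and an adjusted p of 0.669. Leaving out each library in turn, Dkk3 kept a p under 0.05 without WT replicate 2 and without Myt1-/- replicate 1, and the highest p of the 6 fits was 0.081.

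Sfrp2 and Sfrp1, decoys that bind Wnt proteins through a Frizzled-like domain, came next. Sfrp2 was at 28.30, 33.70 and 27.97 TPM in WT and at 33.43, 36.41 and 35.42 TPM in Myt1-/-. WT replicate 2 lay inside the Myt1-/- range, and the other WT samples lay below it. The means were 30.0 ± 3.22 and 35.1 ± 1.52 TPM (SD, n = 3 each), a 1.17-fold higher level, with a log2 difference of 0.22 (SE 0.09), a limma p of 0.0375 and an adjusted p of 0.669. It kept a p under 0.05 in 2 of the 6 fits, those without WT replicate 2 and without Myt1-/- replicate 1, with a highest p of 0.111, and lost it with no variance trend. An antisense gene, Gm26771, shares 16.1% of the exon bases of Sfrp2 on the opposite strand; it was at 0.94 to 2.68 TPM, and whether reads were counted by strand is not given in the sources used here. Sfrp1 was at 25.31, 28.34 and 33.06 TPM in WT and at 32.29, 33.92 and 32.00 TPM in Myt1-/-, with a limma p of 0.113, and 0.0118 without WT replicate 3.

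Sfrp5 had the largest standard error of the log2 difference among the tested members, 0.44. It was at 4.63, 2.47 and 8.39 TPM in WT and at 2.39, 2.94 and 0.72 TPM in Myt1-/-. It was highest in WT replicate 3 and lowest in Myt1-/- replicate 3, and the groups overlapped. The log2 difference was -1.0 (95% interval -2.06 to 0.06, limma p of 0.0613, adjusted p of 0.671). Its limma p was 0.0205 without WT replicate 2 and 0.0474 without Myt1-/- replicate 2. The mean of the sensory ganglion markers had the same highest and lowest libraries, as had 5 of its 8 genes. Sfrp5 lay -0.01, -0.71 and 0.72 from its WT mean in the WT libraries and -0.75, -0.53 and -1.72 in Myt1-/-, and the marker mean lay 0.06, -0.62 and 0.56 and then -0.32, -0.34 and -1.88. Of the 8 ganglion markers 1, Prph, had an unadjusted p under 0.05, and the summed level spanned 382 to 659 TPM in WT and 259 to 432 TPM in Myt1-/-. The part of ganglion tissue in the level of Sfrp5 was not tested.

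Wif1, another secreted Wnt-binding inhibitor, was at 2.68, 3.28 and 4.18 TPM in WT and at 5.22, 4.75 and 4.07 TPM in Myt1-/-. The groups overlapped by 1 sample each, with a limma p of 0.0585 and an adjusted p of 0.671. The limma p of Wif1 was 0.0213 without WT replicate 3, 0.0425 with no variance trend and 0.0475 with upper-quartile scaling. Notum, the esterase that removes the lipid from Wnt proteins, averaged 11.4 ± 2.60 TPM (WT) and 13.8 ± 2.26 TPM for Myt1-/- (n = 3 each, SD), with 29.4% of its exon bases shared with its antisense gene Notumos. Sfrp4 and Dkk2 were at 4.12 and 2.12 TPM in WT, and Dkk1, which blocks Lrp5 and Lrp6, at 0.227 TPM under the filter.

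R-spondins bind Lgr4, Lgr5 or Lgr6 and take out Rnf43 and Znrf3, membrane ubiquitin ligases that otherwise clear Frizzled receptors from the cell surface. Rnf43 showed the largest log2 difference upward of the tested members. It was at 1.12, 1.08 and 1.38 TPM across WT and at 2.65, 2.59 and 2.02 TPM across Myt1-/-. All Myt1-/- samples lay above all WT samples, and the lowest Myt1-/- sample was Myt1-/- replicate 3. The means were 1.19 ± 0.163 and 2.42 ± 0.348 TPM (SD, n = 3 each), 2.03-fold higher. The log2 difference was 0.64 (SE 0.16, 95% interval 0.25 to 1.03), with a limma p of 0.00635 and an adjusted p of 0.669. Of the 5 members called in the fit with all samples, it alone kept an unadjusted p under 0.05 in all 6 fits made without 1 library, with p between 0.0082 and 0.0269. The levels are close to the filter of 1 TPM, and with a pseudocount of 0.1 the log2 difference was 0.96.

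Znrf3 is the paralog of Rnf43. It was at 3.76, 3.87 and 4.02 TPM in WT and at 3.88, 4.35 and 3.78 TPM in Myt1-/-. The samples overlapped, and the log2 difference was 0.03 (95% interval -0.25 to 0.31). The difference between the paralogs was not tested. In WT, Znrf3 lay above Rnf43, at 3.88 and 1.19 TPM.

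Of the R-spondins, Rspo1 was at 1.39, 1.74 and 1.64 TPM in WT and at 2.93, 1.89 and 3 TPM in Myt1-/-. The groups did not overlap, with Myt1-/- replicate 2 close above WT. The means were 1.59 ± 0.180 and 2.61 ± 0.622 TPM (SD, n = 3 each), a 1.64-fold higher level, with a log2 difference of 0.46 (SE 0.18), a limma p of 0.0414 and an adjusted p of 0.669. A p under 0.05 remained in 1 of the 6 fits, that without Myt1-/- replicate 2, and the highest p was 0.128. With replicate number as a term the limma p of Rspo1 was 0.0737. Its WT levels are close to the filter of 1 TPM. Rspo2, the most abundant R-spondin, was at 6.35, 8.29 and 9.81 TPM in WT and at 10.05, 8.03 and 7.1 TPM in Myt1-/-, with overlapping samples. Rspo3 was at 3.85 ± 0.929 and 3.25 ± 0.267 TPM (SD, n = 3 each), and Rspo4 was under the filter. Among the receptors, Lgr4 was at 13.41, 16.67 and 16.91 TPM (WT) and 16.05, 17.04 and 16.37 TPM (Myt1-/-), with overlapping samples, above Lgr5 (2.42 and 2.47 TPM) and Lgr6 (2.25 and 1.67 TPM), and none reached an unadjusted p under 0.05.

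**Figure D4:**
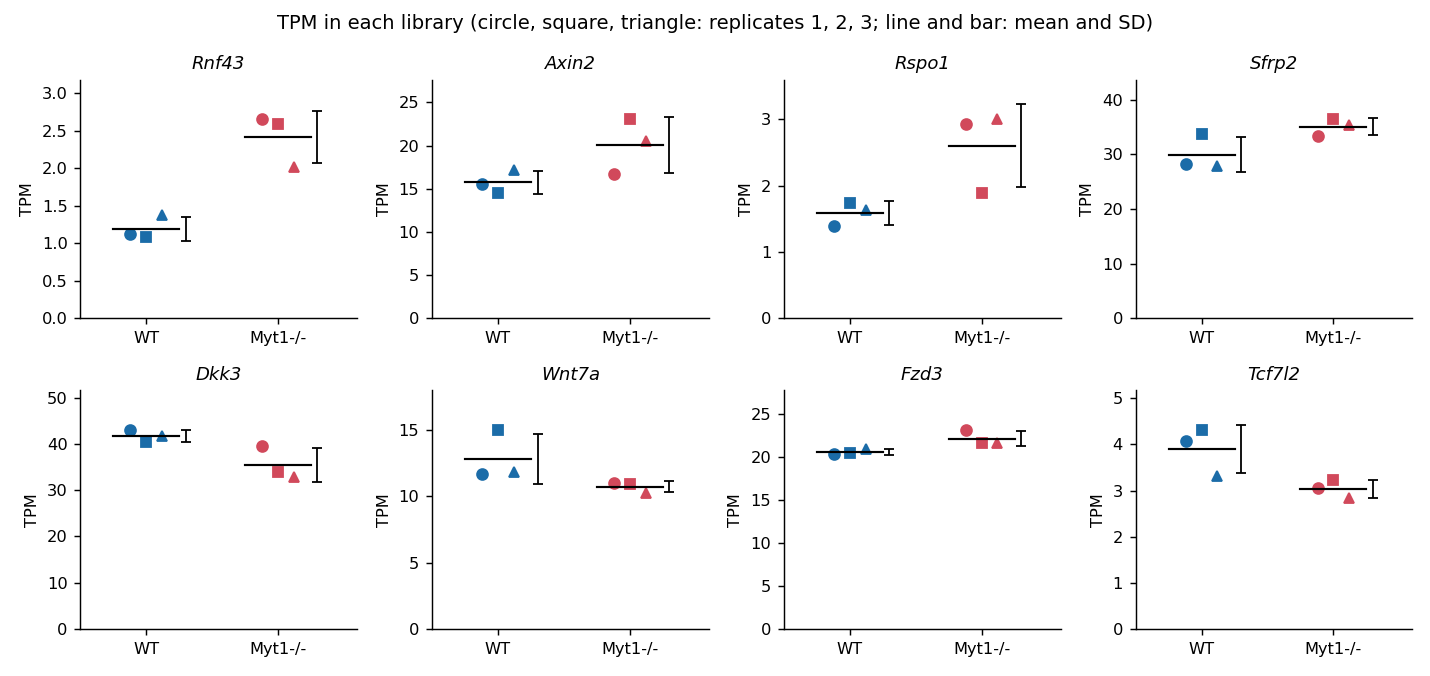
TPM of 8 genes in each library, with the mean (line) and SD (bar) of each genotype, on axes that start at 0. Rnf43 lies between 1.08 and 1.38 TPM in WT and between 2.02 and 2.65 TPM in Myt1-/-; for Axin2 and Sfrp2 1 library of a genotype reaches into the range of the other.

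The nuclear factors and target genes were led by Apcdd1, a membrane inhibitor of Wnt signalling, at 76.10, 60.03 and 64.55 TPM in WT and at 58.05, 61.43 and 63.34 TPM in Myt1-/-. WT replicate 1 stood above the rest, and the log2 difference was -0.13 (95% interval -0.35 to 0.09.) Nkd1, which binds Dishevelled and dampens the signal, was at 27.91, 32.38 and 31.20 TPM in WT and at 31.75, 35.05 and 30.09 TPM in Myt1-/-, with overlapping samples.

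Axin2, a scaffold of the destruction complex that is itself a standard readout of beta-catenin activity, was at 15.57, 14.54 and 17.12 TPM in WT and at 16.66, 23.03 and 20.49 TPM in Myt1-/-. Myt1-/- replicate 1 lay inside the WT range, and the other Myt1-/- samples lay above it. The means were 15.7 ± 1.3 and 20.1 ± 3.21 TPM (SD, n = 3 each), a 1.27-fold higher level, with a log2 difference of 0.32 (SE 0.13), a limma p of 0.0414 and an adjusted p of 0.669. It kept a p under 0.05 in 2 of the 6 fits, those without WT replicate 3 and without Myt1-/- replicate 1. The highest p was 0.136. The call of Axin2 was lost under median-ratio scaling (p of 0.0527 by limma) and with no variance trend. It was also lost with replicate number as a term (p of 0.056 by limma).

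The DNA-binding partners of beta-catenin in this set were Lef1, at 3.83 ± 0.738 TPM (WT) and 4.33 ± 0.531 TPM (Myt1-/-), and Tcf7, at 5.40 ± 0.653 and 4.48 ± 0.422 TPM (SD, n = 3 each). Tcf7 had a limma p of 0.137, which fell under 0.05 without WT replicate 1. Sp5, a transcription factor induced by Wnt signals, was at 1.86, 2.11 and 2.23 TPM in WT and at 2.27, 3.70 and 2.06 TPM in Myt1-/-, where Myt1-/- replicate 2 stood above the rest. Of the 10 targets and feedback regulators named singly in the choice of members (Axin2, Lef1, Tcf7, Nkd1, Sp5, Notum, Apcdd1, Rnf43, Znrf3 and Wif1), 8 had a log2 difference above 0. Of the 10, 2 were called higher, beside 4.32% of all genes, and none lower, beside 3.13%. Their median was 0.193, beside 57.5% of all genes tested with a difference above 0 and an overall median of 0.025. Lef1, Nkd1, Notum and Znrf3 were at 0.148, 0.08, 0.265 and 0.034 over all samples. Without WT replicate 1 they were at 0.018, 0.02, 0.078 and 0.015. In that fit Axin2, Sp5, Rnf43 and Wif1 were at 0.316, 0.188, 0.615 and 0.266, and Tcf7 and Apcdd1 at -0.309 and -0.031.

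The promoters of these genes are shown because TCF/LEF factors act through the letters CTTTG, most tightly as CTTTGAT, and Myt1 and its paralogs are known to bind AAAGTTT. The windows run from 250 bases before to 50 after a RefSeq transcript start on GRCm38.p6, written 5′ to 3′ on the gene's strand, with any match to these letters on either strand in capitals. CTTTG lies within CTTTGAT, so each match to the longer motif is also counted for the shorter. Axin2, Rnf43 and Rspo1 are shown as members with an unadjusted p under 0.05, Wnt7a as the tested ligand whose groups did not overlap, and Sp5 as a target whose window holds matches.
Axin2 (chr11:108920099-108920398, plus strand): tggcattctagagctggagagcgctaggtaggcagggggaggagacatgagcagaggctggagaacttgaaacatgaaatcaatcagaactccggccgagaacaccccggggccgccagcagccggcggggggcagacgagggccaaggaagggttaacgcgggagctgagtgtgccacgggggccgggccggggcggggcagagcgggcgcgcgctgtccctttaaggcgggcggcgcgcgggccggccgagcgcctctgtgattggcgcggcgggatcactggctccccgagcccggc
Rnf43 (chr11:87662837-87663136, plus strand): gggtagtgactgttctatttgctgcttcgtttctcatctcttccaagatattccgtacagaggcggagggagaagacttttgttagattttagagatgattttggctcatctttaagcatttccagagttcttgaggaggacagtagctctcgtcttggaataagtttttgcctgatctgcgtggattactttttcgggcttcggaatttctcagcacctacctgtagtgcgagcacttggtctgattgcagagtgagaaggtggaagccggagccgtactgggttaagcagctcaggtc
Rspo1 (chr4:124986180-124986479, plus strand): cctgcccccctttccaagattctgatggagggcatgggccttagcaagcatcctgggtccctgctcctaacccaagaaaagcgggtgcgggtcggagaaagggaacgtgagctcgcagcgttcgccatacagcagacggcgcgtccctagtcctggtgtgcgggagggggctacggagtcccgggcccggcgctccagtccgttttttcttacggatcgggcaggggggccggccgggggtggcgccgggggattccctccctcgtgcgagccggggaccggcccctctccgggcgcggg
Wnt7a (chr6:91411304-91411603, minus strand): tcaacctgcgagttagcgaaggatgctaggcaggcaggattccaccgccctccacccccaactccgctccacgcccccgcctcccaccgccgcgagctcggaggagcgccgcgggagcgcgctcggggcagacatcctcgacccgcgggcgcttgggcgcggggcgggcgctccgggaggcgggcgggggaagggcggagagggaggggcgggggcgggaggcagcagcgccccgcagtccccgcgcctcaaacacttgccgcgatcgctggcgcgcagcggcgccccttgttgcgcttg
Sp5 (chr2:70474673-70474972, plus strand): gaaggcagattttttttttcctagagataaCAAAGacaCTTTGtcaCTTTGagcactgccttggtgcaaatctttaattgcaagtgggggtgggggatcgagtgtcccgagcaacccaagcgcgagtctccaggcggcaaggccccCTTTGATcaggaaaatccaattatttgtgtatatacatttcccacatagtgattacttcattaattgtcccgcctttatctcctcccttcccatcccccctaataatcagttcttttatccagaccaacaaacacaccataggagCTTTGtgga

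The window of Sp5 held CTTTG at 5 places, 1 of them CTTTGAT, and the other 4 windows shown held none of the 3 motifs. Promoter sequences were at hand for 36 of the 56 members, in 44 windows. CTTTGAT was in 3 of these windows (6.82%), of Sp5, Wnt5b and Wnt11, beside 3.73% of all 32851 promoter windows. AAAGTTT was in 3 (6.82%), of Fzd10, Lgr6 and Wnt2, beside 4.74%, and CTTTG in 19 (43.2%) beside 53.9%. These matches describe letters in short windows and do not locate bound sites.

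The rest of the pathway was read from lists of 145 further genes, of which 134 were tested. Of these, 5 were higher in Myt1-/- at an unadjusted p under 0.05 (3.73%, beside 4.32% of all genes) and 0 were lower by limma (3.13% of all genes were), and none passed the adjusted p. The count of 5 ranged from 2 to 11 with 1 library left out. Of the 5, Cdc73 and Sox4 kept their call in all 6 such fits, and Tnks, Mapk8 and Tspan12 in 2 of 6 each, with highest p by limma of 0.123, 0.113 and 0.113.

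Of 17 genes of Wnt secretion and of heparan sulfate on the cell surface, none was called, with a median of 0.011. Wls, which carries Wnt proteins to the surface, averaged 47.3 and 51.8 TPM, and Porcn, the enzyme that adds their lipid, 21.9 ± 1.73 and 19.7 ± 1.13 TPM (SD, n = 3 each). Of 30 genes of Dishevelled and the destruction complex, 1 was called, Tnks, a tankyrase that marks Axin for degradation, at 48.4 ± 2.07 TPM (WT) and 53.4 ± 1.78 TPM for Myt1-/- (n = 3 each, SD; limma p of 0.0406, adjusted p of 0.669). Ctnnb1, which encodes beta-catenin, was at 416 ± 31.3 and 437 ± 9.02 TPM, with a log2 difference of 0.07 (95% interval -0.07 to 0.21.)

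Of 24 nuclear effectors tested, 1 was called: Cdc73, a subunit of the PAF transcription complex that binds beta-catenin, was at 10.74, 12.46 and 13.73 TPM in WT and at 15.06, 16.59 and 17.43 TPM in Myt1-/-. All Myt1-/- samples lay above WT, with a log2 difference of 0.39 (limma p of 0.0103, adjusted p of 0.669). Tcf7l2, the TCF factor that newly forming oligodendrocytes carry, was at 4.07, 4.31 and 3.32 TPM in WT and at 3.05, 3.22 and 2.84 TPM in Myt1-/-. All Myt1-/- samples lay below WT, with a log2 difference of -0.28 (95% interval -0.60 to 0.05) (limma p of 0.0868). The 8 oligodendrocyte markers of the list were all lower in Myt1-/- at an unadjusted p under 0.05, their mean lying between -2.09 and -2.04 from the WT mean and their summed level between 86.2 and 105 TPM in Myt1-/- against 291 to 716 TPM in WT. The part of oligodendrocyte number in the level of Tcf7l2 was not tested.

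Of 32 genes of the polarity and other noncanonical branches 1 was called, the kinase gene Mapk8, at 58.1 ± 5.08 and 66.5 ± 2.78 TPM (SD, n = 3 each; limma p of 0.0365). Of 20 other extracellular modulators tested, 1 was called. This was Tspan12, a tetraspanin that works with Fzd4 in Norrin signalling, at 25.59, 28.67 and 23.32 TPM in WT and at 34.31, 30.11 and 29.07 TPM in Myt1-/-, without overlap (limma p of 0.035). Adgra2 and Reck, partners of Wnt7a and Wnt7b in vessels, were at 17.4 ± 5.0 and 7.97 ± 2.41 TPM in WT. In Myt1-/- they were at 17.1 ± 0.656 and 7.03 ± 0.824 TPM. Over WT replicates 1, 2 and 3 Adgra2 was at 12.13, 17.94 and 22.09 TPM and Reck at 5.33, 8.53 and 10.05 TPM. There the meningeal fibroblast mean lay at -0.48, 0.05 and 0.42 and the endothelial mean at -0.08, 0.02 and 0.06. The part of either tissue in the levels of Adgra2 and Reck was not tested. Of 8 endothelial markers 1, Pecam1, was lower at an unadjusted p under 0.05, and the median of the list was -0.026.

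Of 14 other reported Wnt targets tested, 1 was called. Sox4, a transcription factor of immature neural cells, was at 63.50, 69.61 and 72.89 TPM in WT and at 84.28, 82.31 and 92.32 TPM in Myt1-/-, without overlap, with a log2 difference of 0.33 (limma p of 0.00281, adjusted p of 0.604). Ccnd1 and Myc, which many tissues induce on Wnt signals, were not called.

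**Figure D5:**
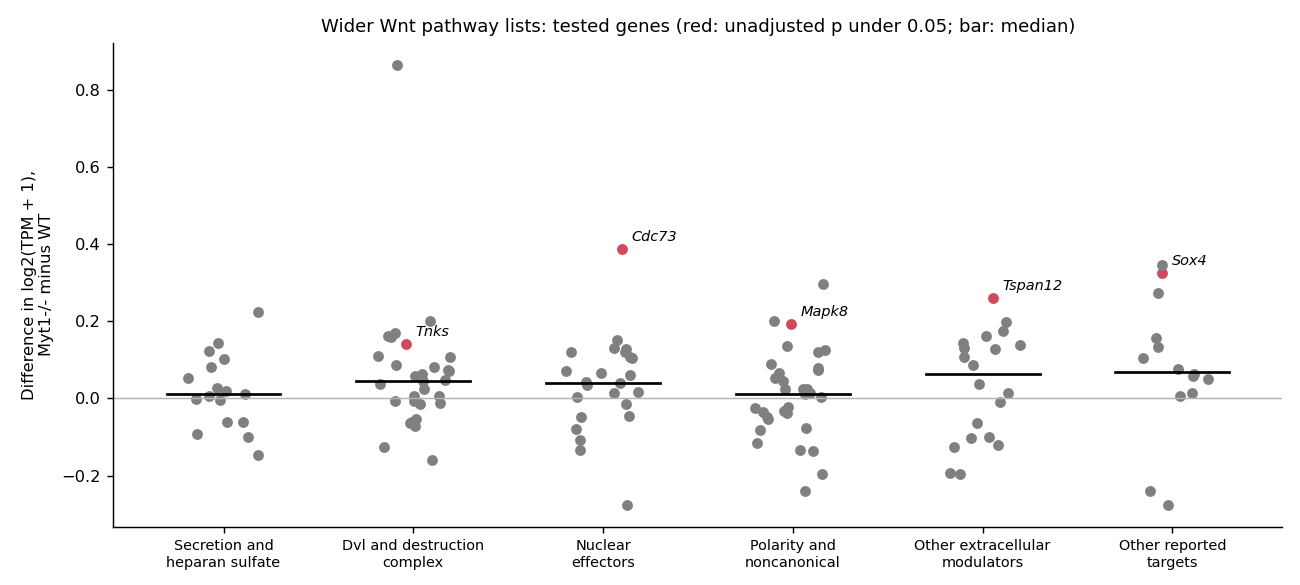
Log2 difference, Myt1-/- minus WT, of the tested genes of 6 lists around the members, with the median of each list as a bar; red marks an unadjusted p under 0.05. The medians lie between 0.011 and 0.07, and the red points are Tnks, Cdc73, Mapk8, Tspan12 and Sox4; the grey point above 0.8 is Dvl2, at 60.15 TPM in Myt1-/- replicate 2.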

How the data were processed

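RNA of thoracic spinal cord was sequenced in 6 samples, 3 WT and 3 Myt1-/-, with a TruSeq RNA kit, per the labels' protocols. The authors deposited TPM for 55487 Ensembl genes in each sample; RSEM, DESeq2 and GRCm38.p6 are named in the submitters' processing notes without a step, and the aligner, annotation release and strand setting are unstated in these sources. Deposited TPM sum to 993139 to 994687 per sample and carry no read depth. A fixed total ties the genes of a sample to each other. Of the columns, 1 matches no sample and was not used.

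Genes with a mean under 1 TPM over the 6 samples were left out (39525), and 15962 were tested with limma 3.58.1 in R 4.3.3, with a variance trend, on log2(TPM + 1). Genotype was the only term, and two-sided p-values were adjusted by Benjamini-Hochberg over all genes tested. Log2 differences are Myt1-/- minus WT and understate the change of low genes; fold changes divide the group means of TPM. The same fit gave the 95% intervals. It was tried on simulated data with independent noise per gene, for planted changes and for calls among unchanged genes. Neither the intervals nor differences shared across a library were part of that trial. The members and lists were chosen with earlier results of these data known. Named in full were the 3 most abundant members of each role. Members with an unadjusted p under 0.05 or groups that did not overlap were also named in full. Of the wider lists, every gene with an unadjusted p under 0.05 was named. Other genes were named after their values were seen, and some genes with a smaller p were left unnamed. Positions and exon overlaps are from GENCODE M21 (GRCm38), promoter sequences from RefSeq (GRCm38.p6). The alternatives were a pseudocount of 0.1, 2 other filters, no variance trend, 2 scalings, replicate number as a term and leaving out each sample in turn. Figures were drawn with matplotlib 3.10.9.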

Additional observations from a re-analysis of the deposited data

How the results depend on the processing

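With no filter and with median-ratio scaling 2 members were lower at an unadjusted p under 0.05 instead of 1 (Wnt2 and Wnt7a joined Dkk3). Among the wider lists, 1 gene was lower with no variance trend, with either other scaling and with the replicate block, instead of 0, and 3 were higher with median-ratio scaling instead of 5. With the replicate block 2 members were higher instead of 4 (Rnf43 and Sfrp2), and the cause was not tested. Same-numbered samples had correlations of their deviations of 0.031, -0.07 and 0.061 over genes, and differently numbered ones -0.122 to 0.099. The labels do not say whether same-numbered samples share a litter or a batch, and these correlations cannot decide it. Lrp5 turned to -0.003 and Wnt9a to -0.006 with median-ratio scaling. With 1 library left out, members higher ranged from 1 to 4, members lower from 0 to 3, the median log2 difference of members from -0.019 to 0.131, genes called overall from 711 to 1496, and wider-list genes from 2 to 11 higher and 0 to 5 lower. In those fits the log2 difference changed sign for 16 of the 44 tested members, none of them called with all samples, and 10 of the 16 did so without WT replicate 1. Of the members described in full these were Lrp5 (-0.128 to 0.136), Wnt6 (-0.072 to 0.427), Fzd1 (-0.212 to 0.004), Fzd2 (-0.05 to 0.264), Lgr4 (-0.025 to 0.132), Rspo2 (-0.105 to 0.173) and Znrf3 (-0.016 to 0.066). No member passed an adjusted p of 0.05 in any fit, or 0.1 or 0.2 in the fit with all samples. The depth is unknown, so precision rests on 3 samples a group.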

Other observations

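Dvl2, which encodes a Dishevelled protein, was at 60.15 TPM in Myt1-/- replicate 2 and between 10.29 and 12.48 TPM in the other 5 libraries. Acadvl, which shares 18.3% of the exon bases of Dvl2 on the opposite strand, was at 39.16 TPM in Myt1-/- replicate 2 and between 36.93 and 42.98 TPM in the others. In that library 9 of the 44 tested members (20.5%) had their highest value of the 6, beside 16.5% of all genes tested. They were Axin2 (23.03 TPM), Notum (16.38 TPM), Sp5 (3.70 TPM), Nkd1 (35.05 TPM), Wnt4, Lgr4, Znrf3, Sfrp1 and Sfrp2. Lef1 was highest in Myt1-/- replicate 3, Tcf7 in WT replicate 3, Apcdd1 in WT replicate 1, and Rnf43 and Wif1 in Myt1-/- replicate 1. These genes were named after their values were seen, and no test was made.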
